A study of Mus musculus with 7 samples.

Results

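Glucocorticoid receptor (GR, NR3C1) occupancy was examined around 6 genes through which glucocorticoids dampen inflammation: Dusp1, Tsc22d3, Zfp36, Nfkbia, Tnfaip3 and Anxa1. Sites were chosen by position alone, with no measured value, but the genes were chosen with earlier results of these data known. Each gene was represented by an approximate transcription start in the mouse genome build mm9, and every ChIP-seq summit within 100 kb of that point was taken. A window may hold other genes, and whether a site acts on the gene that names its window was not tested. Summits of all libraries that lay at most 200 bp from their neighbour were linked into a site. The 6 windows held 141 summits, which formed 49 sites, of 35316 sites in the whole series.

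The data came from chromatin immunoprecipitation with an in-house GR antibody and sequencing, in mouse embryonic fibroblasts grown from embryos of 14 to 17 days post coitum and used between passages 4 and 11. The cells were Klf15-/-, lacking the Krüppel-like zinc-finger factor KLF15, or wild type. Treatment lasted 1 h, either with the synthetic glucocorticoid dexamethasone or with ethanol as vehicle. The groups were Klf15-/- with dexamethasone (2 libraries), wild type with dexamethasone (2), Klf15-/- cells given vehicle (2) and wild type given vehicle (1, from pooled material because little was available). The labels give no dose, no number of embryos and no word on separate cultures, so the spread between libraries may be technical.

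GR is a nuclear receptor that is held in the cytoplasm without ligand and moves to DNA when a glucocorticoid binds it. There it can raise transcription of genes whose products restrain inflammatory signalling. Dusp1 encodes a phosphatase that inactivates MAP kinases, Tsc22d3 encodes the leucine-zipper protein GILZ, and Zfp36 encodes tristetraprolin, which speeds the decay of cytokine mRNAs. Nfkbia encodes IκBα, which keeps NF-κB out of the nucleus, Tnfaip3 encodes A20, a ubiquitin-editing inhibitor of NF-κB signalling, and Anxa1 encodes annexin A1, a mediator that limits leukocyte recruitment.

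RefSeq promoters were matched by symbol for all 6 genes, with 9 starts in all, every one on the minus strand of GRCm38.p6. The 250 bases before the start were searched on both strands for 5 motifs, and 4 promoters are shown because they differ in what they hold. Capitals mark matches: to the NF-κB motif GGGNNTTTCC, the cyclic AMP response element TGACGTCA, the AP-1 motif TGANTCA and the GC box GGGCGG that Krüppel-like and Sp factors recognise.
Dusp1: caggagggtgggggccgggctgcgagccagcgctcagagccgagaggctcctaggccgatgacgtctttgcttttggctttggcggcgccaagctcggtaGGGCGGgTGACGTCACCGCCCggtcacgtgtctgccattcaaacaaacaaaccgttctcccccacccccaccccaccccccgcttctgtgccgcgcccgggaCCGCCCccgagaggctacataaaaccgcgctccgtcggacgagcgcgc
Nfkbia: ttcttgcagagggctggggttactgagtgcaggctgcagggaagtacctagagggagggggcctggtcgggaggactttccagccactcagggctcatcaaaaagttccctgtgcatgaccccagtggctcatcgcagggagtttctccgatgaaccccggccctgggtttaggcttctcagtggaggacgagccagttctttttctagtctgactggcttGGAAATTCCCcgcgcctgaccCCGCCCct
Tnfaip3: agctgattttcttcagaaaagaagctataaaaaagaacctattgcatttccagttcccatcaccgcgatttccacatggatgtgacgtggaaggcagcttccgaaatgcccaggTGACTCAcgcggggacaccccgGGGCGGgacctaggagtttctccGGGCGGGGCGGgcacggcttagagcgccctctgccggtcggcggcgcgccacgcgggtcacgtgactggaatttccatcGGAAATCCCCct
Anxa1: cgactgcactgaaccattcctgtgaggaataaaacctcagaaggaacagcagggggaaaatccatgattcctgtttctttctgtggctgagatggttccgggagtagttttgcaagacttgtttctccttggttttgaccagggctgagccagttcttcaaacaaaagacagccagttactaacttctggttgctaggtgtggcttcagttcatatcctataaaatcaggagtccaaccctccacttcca
In GRCm38.p6, minus strand, these are chr17:26508473-26508722 for Dusp1, chr12:55492648-55492897 for Nfkbia, chr10:19015411-19015660 for Tnfaip3 (the first of its 2 starts) and chr19:20390672-20390921 for Anxa1. The glucocorticoid response element searched, GNACANNNTGTNC, had no match in any of the 9 promoters, and 0.387% of 32841 mouse promoters of this length held one. The NF-κB motif was found before Nfkbia and the first Tnfaip3 start (1.41% of all promoters). Dusp1 held the cyclic AMP response element directly beside a GC box (1.55% and 32.7% of all promoters). The first Tnfaip3 promoter held 1 AP-1 match (6.75% of all promoters) and 3 GC boxes, of which 2 share a base. Anxa1 held none of the 5 motifs. These matches describe letters in a window only. The promoter coordinates belong to a later build than the summits and cannot be set against them.

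Each deposited list gives the summits of 1 library with a score from the authors' peak caller, whose scale is not stated. A score was used only as a percentile, the percentage of summits in the same list that score no higher. Lists held 19999 and 20169 summits in Klf15-/- cells with dexamethasone, 15628 and 16927 in wild type with dexamethasone, 7325 and 8088 in Klf15-/- cells with vehicle, and 10034 in wild type with vehicle. Read depth is unknown. Library 1 of Klf15-/- with vehicle stood apart, with 419 pairs of neighbouring summits no more than 200 bp apart, while the other lists had 4 or fewer. It held 6 of the 49 sites.

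GR summits near these genes were more numerous with dexamethasone than with vehicle. The 6 windows together held 31 and 31 summits in Klf15-/- cells and 26 and 27 in wild type with dexamethasone, against 6 and 6 in Klf15-/- cells and 14 in wild type with vehicle. The lowest dexamethasone count was above the highest vehicle count. Because the lists differ in length, the counts were also taken per 10000 summits of a list. This gave 15.9 ± 0.572 with dexamethasone (SD, n = 4) and 9.85 ± 3.57 with vehicle (SD, n = 3), a difference of 6.01 (exact two-sided permutation test, p = 0.0571, the smallest that 4 libraries against 3 can give). Without library 1 of Klf15-/- with vehicle, the library that stood apart, the difference was 5.18.

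The difference per 10000 summits was 7.63 within Klf15-/- cells and 2.34 within wild type. In Klf15-/- cells the libraries had 15.5 and 15.4 with dexamethasone, against 8.19 and 7.42 with vehicle. Wild-type cells had 16.6 and 16.0 with dexamethasone, against 14.0 with vehicle. With 1 wild-type vehicle library, the spread of that group is unknown and a difference in wild type could not be tested. Whether the effect differed between genotypes was not tested. After dexamethasone the means were 15.4 ± 0.0924 in Klf15-/- cells and 16.3 ± 0.485 in wild type (SD, n = 2 each), a difference of -0.858 (exact two-sided permutation test, p = 0.333, the smallest that 2 against 2 can give).

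**Figure D1:**
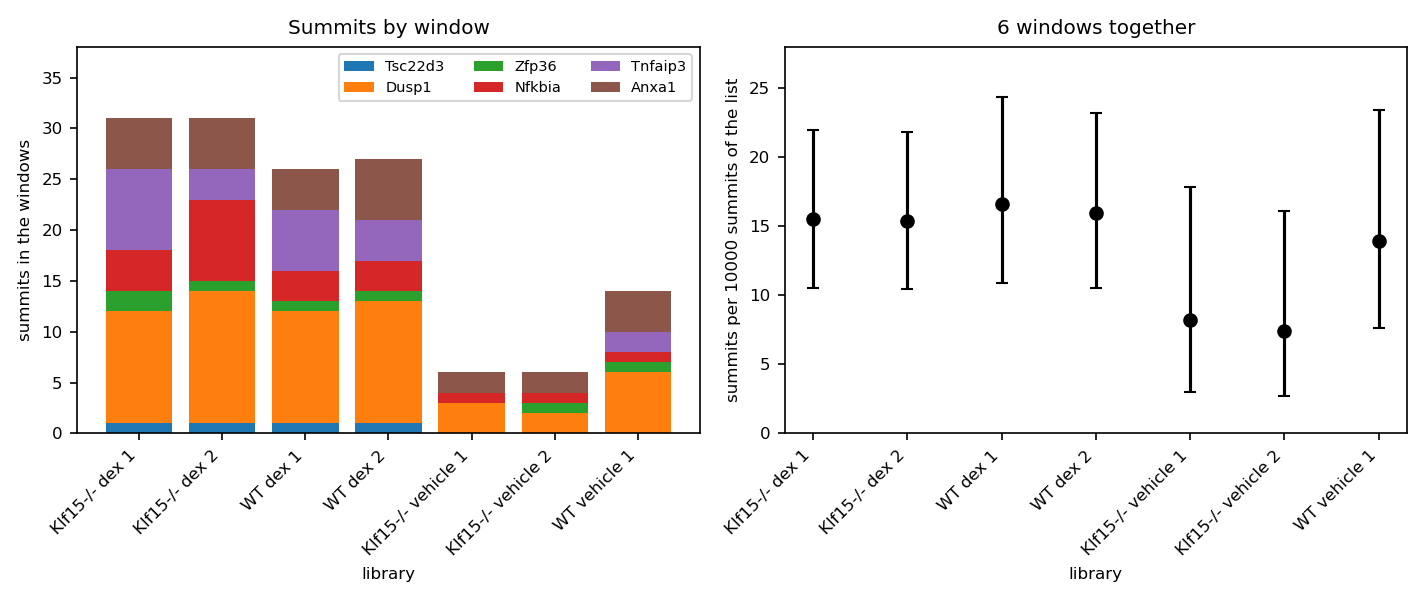
Left, summits in the 6 windows by library, stacked by gene. Right, the same total per 10000 summits of the list (y axis, from 0), with exact 95% intervals that cover counting error only. All 4 dexamethasone libraries hold 26 to 31 summits, the vehicle libraries 6 to 14, and Dusp1 has the largest part in each dexamethasone library.

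The windows differed widely in how many sites they held, which is not a measure of the amount of receptor. Dusp1 had 15 sites, Tnfaip3 12, Nfkbia 9, Anxa1 6, Zfp36 6 and the window at the Tsc22d3 point 1, although that point may be misplaced. For scale, the genome was tiled into 13197 windows of 200 kb, which held a median of 1 site, and 36.7% held none. As many sites as at Dusp1 were found in 0.977% of these tiles, as many as at Tnfaip3 in 2.67%, as at Nfkbia in 7.24% and as at Anxa1 or Zfp36 in 16.9%. Sites held by all 4 dexamethasone libraries numbered 10 at Dusp1 (as many in 0.144% of tiles), 4 at Anxa1 (4.65%), 2 at Tnfaip3 (16.4%), 1 at Nfkbia and 1 at the given Tsc22d3 point (33.0%), and 0 at Zfp36. The tiles include stretches without genes and the stretches of the windows themselves. These percentages therefore describe how common such a count is and do not set the genes apart from other genes.

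**Figure D2:**
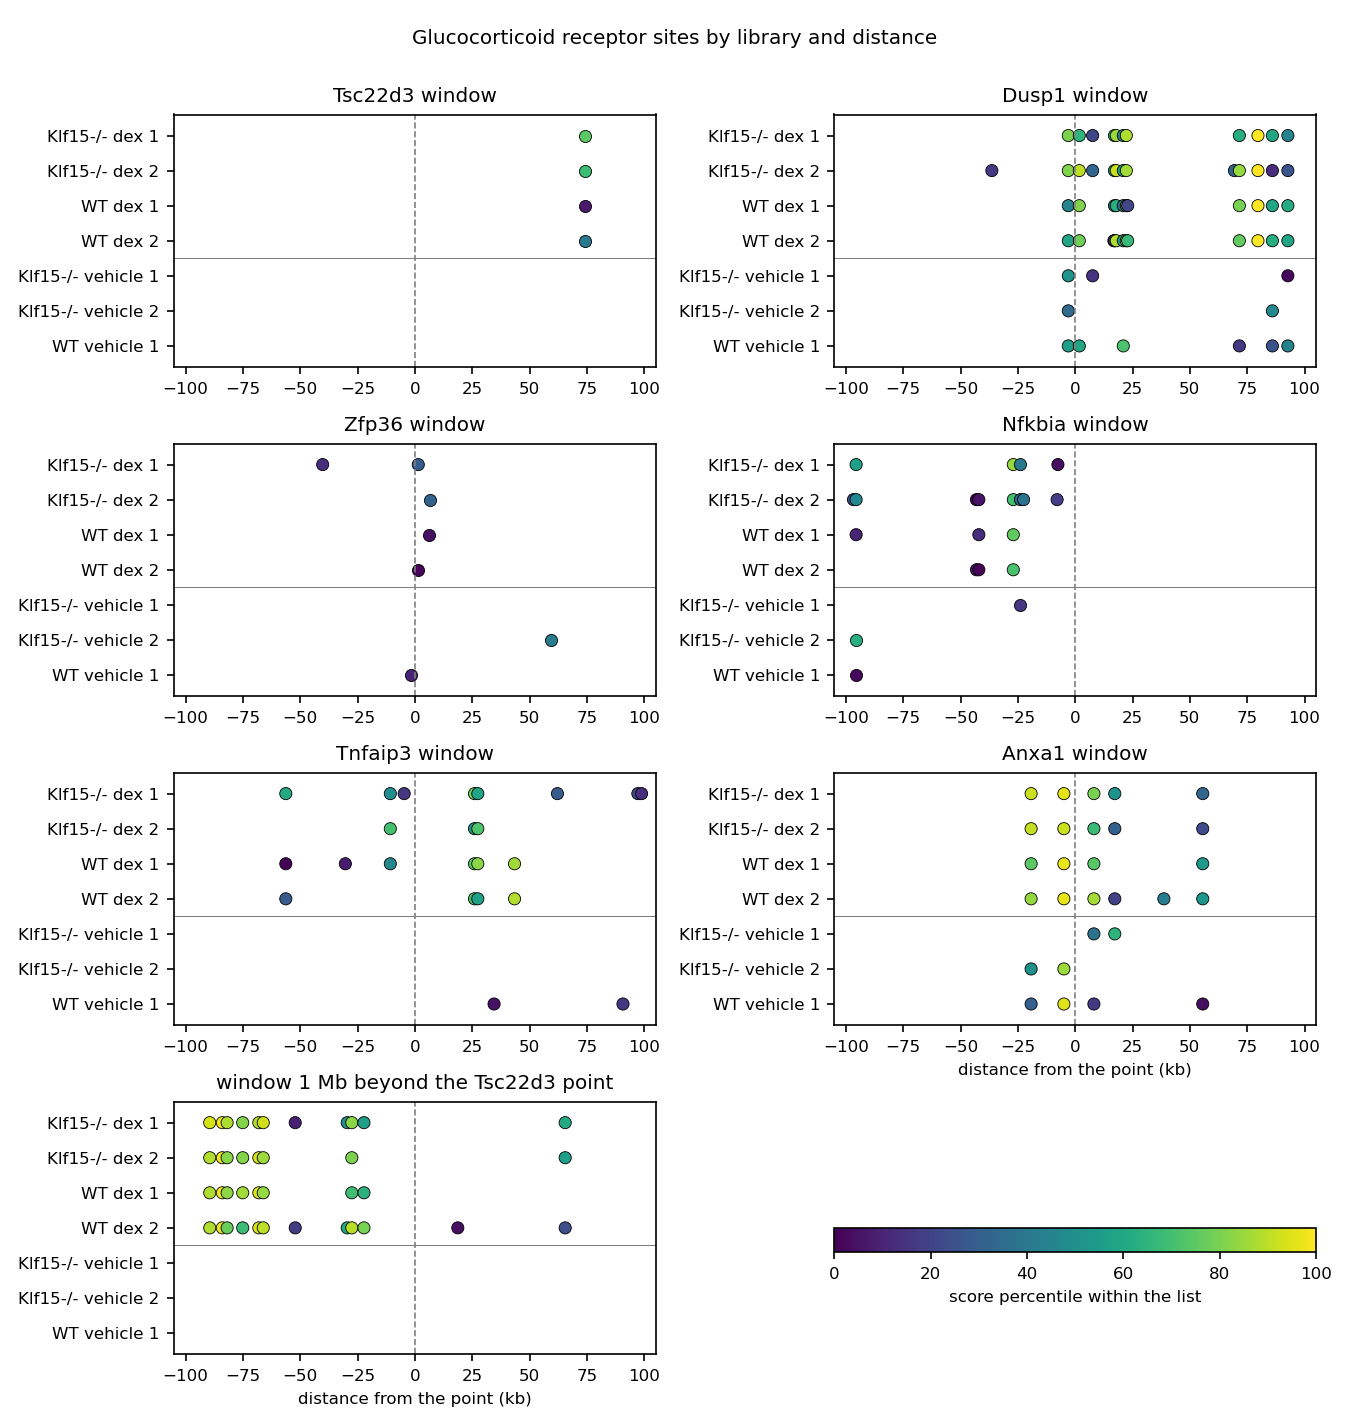
Sites in each window by library (rows) and distance from the approximate start (x axis, kb, positive towards higher coordinates), coloured by score percentile within the list. The bottom panel is the window 1 Mb beyond the Tsc22d3 point. Dexamethasone rows hold recurring columns of sites at Dusp1 and Anxa1, while Zfp36 has scattered single points.

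The window of Dusp1, the MAP kinase phosphatase gene, had more sites than any other of the 6 and the site with the highest percentile. That site, on chromosome 17 from 26729673 to 26729729, lay 79.7 kb from the point towards higher coordinates, which is the upstream side of a minus-strand gene. It ranked 56 and 47 from the top in the Klf15-/- dexamethasone lists and 81 and 85 in the wild-type ones. That is percentile 99.7 and 99.8 in Klf15-/- cells and 99.5 and 99.5 in wild type. All 3 vehicle lists lacked it, and the nearest vehicle summit was 6.22 kb away.

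A second group of Dusp1 sites lay between 17.1 and 22.9 kb from the point. The site at 22.3 kb (26672293 to 26672303) stood at percentiles 88.1 and 85.6 in Klf15-/- and 82.2 and 91.3 in wild type with dexamethasone, and in no vehicle list. The site at 17.9 kb (26667865 to 26667955) stood at 85.4 and 92.0 in Klf15-/- and 63.0 and 88.7 in wild type, again with no vehicle summit. The genotypes overlapped at both. Beside them, the site at 17.1 kb (26667105 to 26667129) was ranked lower, at 61.7 and 51.6 in Klf15-/- and 39.4 and 15.9 in wild type, with no vehicle summit. The site at 21.0 kb (26670893 to 26671028) had a vehicle summit, in 1 library. It stood at percentile 71.6 in the wild-type vehicle list, and both Klf15-/- vehicle lists lacked it. With dexamethasone it stood at 42.9 and 52.3 in Klf15-/- and 35.5 and 52.4 in wild type. Percentiles of lists of different length do not measure a change in occupancy.

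Close to the Dusp1 point, receptor summits were recorded with vehicle too. The site 3.01 kb from the point towards lower coordinates (26646886 to 26647085) was the only one of the 49 held by all 7 libraries. It stood at percentiles 80.4 and 81.2 in Klf15-/- and 45.3 and 58.9 in wild type with dexamethasone, and at 51.4 and 35.0 in Klf15-/- and 55.7 in wild type with vehicle. The Klf15-/- dexamethasone percentiles were the highest and did not overlap those of any other group. Over the series, both Klf15-/- percentiles lay above both wild-type dexamethasone ones at 33.8% of sites in all 4 dexamethasone lists. The site at 1.78 kb (26651747 to 26651813) was in all 4 dexamethasone lists, at 65.1 and 89.9 in Klf15-/- and 81.2 and 78.2 in wild type, and in the wild-type vehicle list at 59.6. The points are given to 10 kb, so it cannot be said which of these lies at the promoter.

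Other outer Dusp1 sites in all 4 dexamethasone lists, unlike the leading one, were shared with vehicle lists. The site at 71.6 kb had percentiles 62.4 and 84.0 in Klf15-/- and 79.6 and 76.0 in wild type with dexamethasone, against 16.3 in wild type with vehicle. The sites at 86.0 and 92.7 kb were each held by 6 of 7 libraries and ranked from 12.8 to 61.9 among dexamethasone lists. Of the 15 Dusp1 sites, 7 had a vehicle summit (46.7%, exact interval 21.3 to 73.4%), against 45.8% of all sites of the series. Every one had a dexamethasone summit. Dusp1 sites with a vehicle but no dexamethasone summit were thus 0 of 15 (exact interval 0 to 21.8%), against 12.7% of all sites. Both of these shares of the series lie within the intervals. Sites in all 4 dexamethasone lists were 10 of the 15 (66.7%, exact interval 38.4 to 88.2%), against 25.4% of all sites. That share lies below the interval, which covers counting error only, and neighbouring sites share their chromatin.

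The window at the point given for Tsc22d3, the GILZ gene, held 1 site. That point may be wrong by 1 Mb, so the window may not describe the gene. The site was on chromosome X from 136204315 to 136204385, 74.3 kb from the point. It stood at percentiles 74.5 and 68.5 in Klf15-/- and 6.36 and 40.8 in wild type with dexamethasone, and in no vehicle list. The Klf15-/- libraries ranked it higher with no overlap, as they did 33.8% of all sites in all 4 dexamethasone lists. Chromosome X held 2.43% and 2.29% of the summits of these Klf15-/- lists and 1.79% and 1.84% of the wild-type ones, and its part in this order was not tested. The nearest site outside the window lay 367 kb from the point.

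No mm9 annotation was used here, so the given position of Tsc22d3 could not be checked. It was doubted as a possible slip of 1 Mb, and a window 1 Mb further along X was examined as an alternative. It held 12 sites from 39 summits, and none of the 3 vehicle lists had a summit in it. Of these sites, 7 were in all 4 dexamethasone lists and no vehicle list, a count reached by 0.0152% of tiles. The tiles include the stretch that holds these 7 sites. The leading site (137046000 to 137046038) stood at percentiles 98.4 and 97.8 in Klf15-/- and 98.8 and 97.3 in wild type. The next was at 137061909 to 137061961, with 88.3 and 94.8 in Klf15-/- and 95.1 and 94.6 in wild type. Another, at 137040494 to 137040562, had 93.4 and 88.2 in Klf15-/- and 88.0 and 88.0 in wild type. The genotypes overlapped at the first and second of these. At the last, both Klf15-/- percentiles were the higher, as at 33.8% of all sites in all 4 dexamethasone lists. The nearest vehicle summit was 198 kb or more away. Which of the 2 windows holds Tsc22d3 was not settled from the files used here, so the counts over 6 genes keep the given point.

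Zfp36, the tristetraprolin gene, had no site that recurred in both libraries of a group with 2. Its 6 sites came from 7 summits, and 5 of them were in a single list. The site nearest the point among those with dexamethasone (29161433 to 29161525 on chromosome 7, 1.48 kb from it) was in library 1 of Klf15-/- at percentile 29.0 and library 2 of wild type at 1.01. No Zfp36 summit ranked above percentile 41.2, which was reached by a vehicle summit of Klf15-/- library 2 at 59.4 kb. All Zfp36 summits thus ranked below the median of their lists and none recurred within a group, which does not show that binding is absent.

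At the NF-κB inhibitor genes, the 3 sites that all 4 dexamethasone lists held had no vehicle summit, and each lay more than 20 kb from its point. Over the series, 30.9% of sites in all 4 dexamethasone lists had no vehicle summit. That share lies within the exact intervals of both windows, 2.5 to 100% for 1 of 1 at Nfkbia and 15.8 to 100% for 2 of 2 at Tnfaip3. These counts therefore do not set the windows apart from the series. At Nfkbia, the site on chromosome 12 from 56562946 to 56563040, 27.0 kb towards lower coordinates, was the only one in all 4 dexamethasone lists. It stood at 83.9 and 70.3 in Klf15-/- and 75.6 and 71.2 in wild type, and in no vehicle list. The genotypes overlapped. The nearest vehicle summit, 3.03 kb away, belonged to library 1 of Klf15-/- with vehicle. The other 8 Nfkbia sites ranked at or below percentile 63.0. Lists of Klf15-/- cells with dexamethasone held summits of all 9 Nfkbia sites and those of wild type 4, but 4 of the 9 were in a single list. Library 1 of Klf15-/- held 4 of the 9 and library 2 held 8, while each wild-type library held 3. Per 10000 summits of a list this was 2.00 and 3.97 in Klf15-/- and 1.92 and 1.77 in wild type. A site at 95.6 kb towards lower coordinates was held at 56.6 and 46.7 in Klf15-/- with dexamethasone and 9.88 in 1 wild-type library with dexamethasone, and at 63.0 in library 2 of Klf15-/- and 2.08 in wild type with vehicle.

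At Tnfaip3, 2 neighbouring sites on the upstream side were in all 4 dexamethasone lists and in no vehicle list. The nearer site (chromosome 10, 18765947 to 18766044) stood at 78.5 and 53.6 in Klf15-/- and 74.0 and 71.7 in wild type. The site at 27.4 kb (18767419 to 18767466) stood at 57.9 and 72.6 in Klf15-/- and 82.8 and 56.6 in wild type. At both, the genotypes overlapped, and their means differed by less than the spread between the Klf15-/- libraries. The Tnfaip3 window held 2 vehicle summits, both of wild type and at percentiles 4.64 and 16.1, and neither fell at a dexamethasone site.

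Another Tnfaip3 site was recorded in wild type alone. On chromosome 10 from 18783435 to 18783477, 43.5 kb from the point, it stood at percentiles 85.8 and 87.9 in the wild-type dexamethasone lists and had no summit in any other list. The nearest Klf15-/- dexamethasone summit was 16.0 kb away. It ranked above both neighbouring shared sites in each wild-type list. Chromosome 10 as a whole held 6.30% and 6.12% of the summits of Klf15-/- dexamethasone lists and 7.75% and 7.44% of the wild-type ones, and the part of this in the missing site was not tested. A further site, at 10.7 kb towards lower coordinates, was held by both Klf15-/- libraries with dexamethasone (49.4 and 70.1) and by 1 of the wild-type ones (47.0).

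Anxa1, the annexin A1 gene, had the highest-ranked vehicle summit of the 6 windows and the largest share of sites with a vehicle summit. The site on chromosome 19 from 20455006 to 20455100, 4.95 kb from the point towards lower coordinates, stood at percentiles 95.5 and 92.1 in Klf15-/- and 97.1 and 96.4 in wild type with dexamethasone. With vehicle it stood at 84.8 in library 2 of Klf15-/- and 94.7 in wild type, and library 1 of Klf15-/- lacked it. Of the 6 Anxa1 sites, 5 had a vehicle summit (83.3%, exact 95% interval 35.9 to 99.6%), against 45.8% of all sites of the series, which lies within the interval. None of the 6 was in all 4 dexamethasone lists without a vehicle summit (exact 95% interval 0 to 45.9%). The share over all sites was 7.85%, which lies within the interval. The site at 19.2 kb towards lower coordinates (20440617 to 20440908) stood at 91.9 and 90.8 in Klf15-/- and 74.9 and 83.8 in wild type with dexamethasone, against 49.95 in library 2 of Klf15-/- and 29.8 in wild type with vehicle. Every dexamethasone percentile was above the vehicle ones here, although percentiles of lists of different length do not measure a change in occupancy. The site at 8.14 kb (20468021 to 20468268) had 80.0 and 67.8 in Klf15-/- and 73.5 and 86.6 in wild type with dexamethasone, against 37.8 in library 1 of Klf15-/- and 16.8 in wild type with vehicle. The site at 55.6 kb (20515438 to 20515792) ranked lower, at 33.0 and 22.4 in Klf15-/- and 54.2 and 52.5 in wild type, with a wild-type vehicle summit at 3.43.

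**Figure D3:**
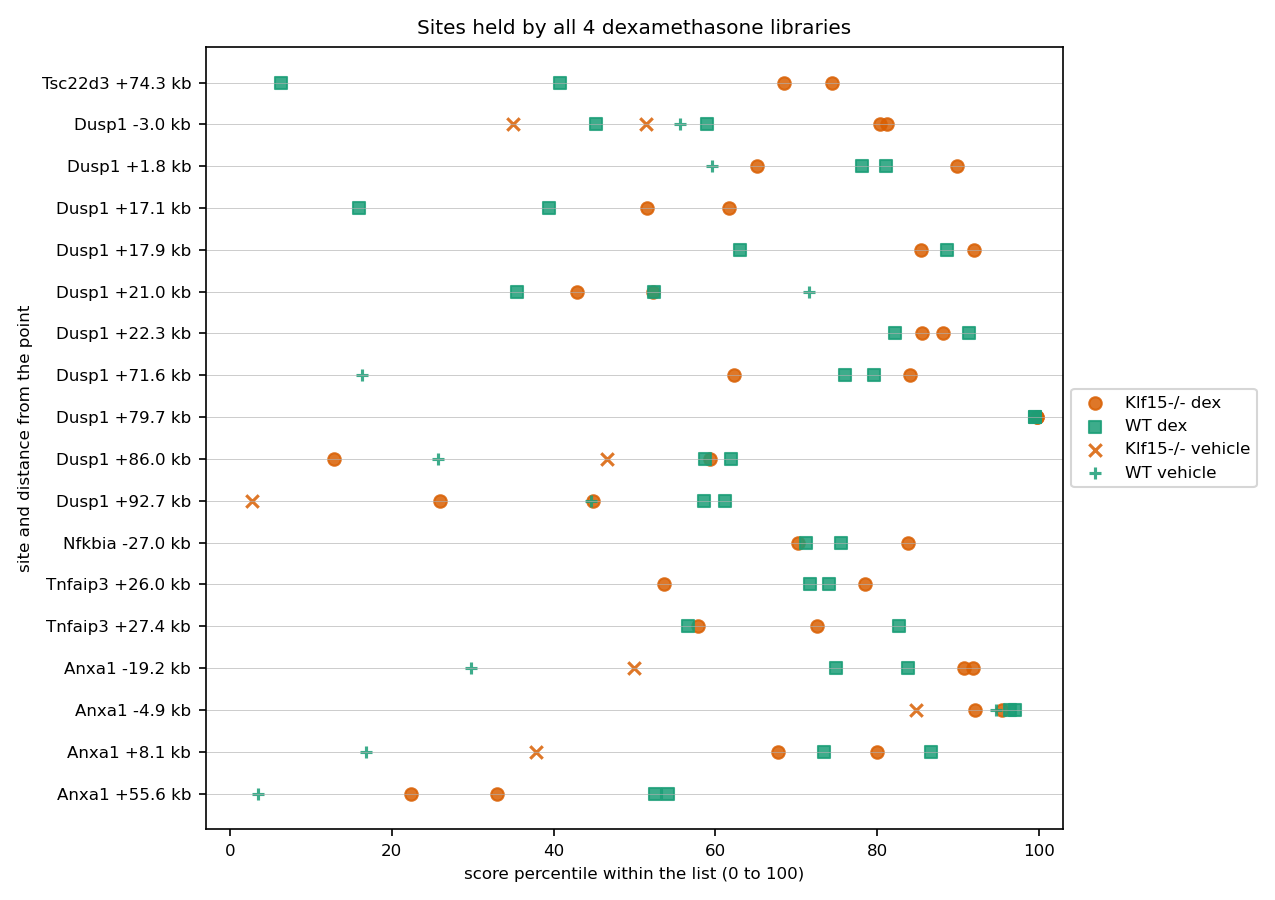
Score percentile within each list (x axis) of the 18 sites in the 6 windows that all 4 dexamethasone libraries held, labelled by gene and distance from the point. Circles and squares are dexamethasone libraries of Klf15-/- and wild type, crosses and plus signs the vehicle libraries. The Dusp1 site at 79.7 kb has no vehicle mark, while the Anxa1 site at 4.95 kb towards lower coordinates has vehicle marks at 84.8 and 94.7.

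Taken over the 6 windows, 18 of 49 sites were in all 4 dexamethasone lists (36.7%, exact 95% interval 23.4 to 51.7%), against 25.4% of all sites, which lies within the interval. Dusp1 supplied 10 of the 18, from its 15 sites (66.7%, 38.4 to 88.2%), and the other windows held 8 of 34 (23.5%, 10.7 to 41.2%). Of the 49 sites, 8 were in all 4 dexamethasone lists and in no vehicle list (16.3%, 7.32 to 29.7%), against 7.85% of all sites, which lies within the interval. The count was also 8 without library 1 of Klf15-/- with vehicle, and 12 without the wild-type vehicle library. At Dusp1 the count was 4 of 15, and in the other windows it was 4 of 34 (11.8%, 3.30 to 27.5%). Among sites in all 4 dexamethasone lists, 8 of 18 had no vehicle summit (44.4%, 21.5 to 69.2%), against 30.9% of all such sites. Sites of all 7 libraries were 1 of 49 (2.04%, 0.0517 to 10.9%), against 6.22% of all sites. Sites in a single list were 20 of 49 (40.8%), against 38.7% of all sites. Sites with a vehicle but no dexamethasone summit were 4 of 49 (8.16%), against 12.7% of all sites. Neighbouring sites of a locus share their chromatin, and the intervals cover counting error only.

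Few sites separated the genotypes after dexamethasone. Both wild-type libraries and neither Klf15-/- library held 2 of 49 sites (4.08%, against 4.39% of all sites). These were the Tnfaip3 site at 43.5 kb and a Dusp1 site at 22.9 kb (26672872 to 26672887) with wild-type percentiles 20.9 and 66.9, which lay 0.569 kb from a Klf15-/- summit. Both Klf15-/- libraries and neither wild-type library held 2 of 49 (4.08%, 0.498 to 14.0%, against 9.78% of all sites). They were a Dusp1 site at 7.59 kb (26657510 to 26657669; percentiles 21.3 and 32.2) and a Nfkbia site at 23.9 kb towards lower coordinates (56566074 to 56566137; 40.5 and 33.8). Both were also in library 1 of Klf15-/- with vehicle, at percentiles 14.5 and 15.9. Shares of this size were near or below those of all sites.

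The rank order of shared sites was close to that of such sites over the whole series. Of the 18 sites in all 4 dexamethasone lists, both Klf15-/- percentiles lay above both wild-type ones at 5 (27.8%, against 33.8% of all such sites), and both wild-type ones lay above both Klf15-/- ones at 3 (16.7%, against 20.2%). The other 10 overlapped. The median percentile of the 18 sites was 76.5 and 71.4 in Klf15-/- and 73.8 and 71.5 in wild type, beside 73.7 and 74.2 in Klf15-/- and 68.1 and 70.5 in wild type for all 8977 such sites.

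Sites lay close to the limit of 100 kb on both sides. Just inside the limit lay a Tnfaip3 summit at 98.9 kb (percentile 12.8 in its list) and a Nfkbia summit at 96.7 kb (22.8), each in 1 list. The Nfkbia site at 95.6 kb, in 5 lists, and the Dusp1 site at 92.7 kb, in 6, reached percentiles 63.0 and 61.2. Just outside lay a Nfkbia summit at 101 kb (17.3) and a Dusp1 summit at 101.9 kb (37.7), also in 1 list each. A Tnfaip3 site at 106 kb was held by all 7 libraries and reached percentile 92.4, and an Anxa1 site at 128 kb was in all 4 dexamethasone lists, reached 94.8 and had no vehicle summit.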

How the data were processed

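GR ChIP-seq summit lists of 7 libraries were used. Per the submitters' processing notes, the tools were CASAVA, Bowtie2 and SAMtools and the build was mm9. Peak caller, control library and calling threshold: not given in the sources used here. The score in each deposited list is the authors' value per summit on a scale that is not stated, so scores were ranked within a list only. Longer lists can come from deeper sequencing, and depth is unknown. Positions are counted from 1.

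Summits were linked at a gap of 200 bp and assigned to windows of 100 kb either side of the points. Shares have exact (Clopper-Pearson) 95% intervals. Libraries were compared by exact permutation with a threshold of 0.05, and no model was fitted. Named sites were the 3 highest-ranked per window in all 4 dexamethasone lists (by the list where they rank lowest), those in all 7 lists, those of 1 genotype and those at the window edges. Further sites were named after their values were seen. The members and lists were chosen with earlier results of these data known. Linkage was tested on simulated lists. Same-numbered libraries are not stated to share a culture. Tools were Python 3.11.15 with scipy 1.17.1, pandas 2.3.3, numpy 2.4.6 and, for plots, matplotlib 3.10.9.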

Additional observations from a re-analysis of the deposited data

How the results depend on the processing

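The difference between dexamethasone and vehicle in summits per 10000 kept its direction under every alternative run, from 4.79 to 8.06 with 1 library left out. It was 12.6 for summits above the median score, 10.2 with lists of equal length, 10.9 with the Tsc22d3 point moved by 1 Mb, 7.63 within Klf15-/- and 2.34 within wild type. With same-numbered Klf15-/- libraries as pairs (replicate block) it was 7.63 (exact permutation test, p = 0.5, the smallest that 2 pairs can give). No run could pass 0.05. The Klf15-/- minus wild-type difference also kept its direction, and ranged from -1.20 to -0.515 with 1 library left out. Its size depended on the processing. It was -4.10 with lists of equal length, -3.01 for summits above the median score and -2.11 with the Tsc22d3 point moved by 1 Mb.

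Summits above the median score gave 24 sites in the windows and 0 in all 7 lists. Windows of 50 kb either side gave 34 sites, of which 6 were in all 4 dexamethasone lists with no vehicle list. Lists of equal length gave 25 sites, 4 in all 4 dexamethasone lists with no vehicle list, 0 in all 7 lists, and 1 of Klf15-/- alone. Moving the Tsc22d3 point gave 14 sites in all 4 dexamethasone lists with no vehicle list. Leaving out 1 library gave 43 to 49 sites, 8 to 12 in the remaining dexamethasone lists with no vehicle list and 1 to 4 in all remaining lists (4 without library 1 and 3 without library 2 of Klf15-/- with vehicle). It gave 2 to 4 wild-type sites (4 without either wild-type dexamethasone library) and 2 to 8 Klf15-/- sites (8 without either Klf15-/- dexamethasone library, 4 without wild-type library 1). With 1 library left, no replicate has to hold the site. By window, a gap of 100 bp split the 6 Anxa1 sites into 10. Lists of equal length left 4 of the 10 Dusp1 sites in all 4 dexamethasone lists and 0 of the 2 Tnfaip3 ones. Windows of 50 kb either side left 6 of those 10 Dusp1 sites, without the leading site at 79.7 kb. They left 7 of the 12 Tnfaip3 sites and 0 at the given Tsc22d3 point. The per-window runs were added after the data were seen.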
